A study of Canis lupus familiaris with 17 samples.

Results

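Interferon-stimulated genes were examined here across the leukocytes of 17 dogs. A list of 38 gene symbols was looked up among the gene names of the 17 count matrices. Of these, 30 symbols were found on 31 of the 20257 genes counted, because OASL stands on 2 rows (ENSCAFG00000010511 and ENSCAFG00000024447), and all 31 are members here. MX1, IRF7, IRF9, IFIH1, USP18, HERC5, CMPK2 and SAMD9, the other 8 symbols, have no entry under these names among the genes counted and were not analysed here. The study drew blood from 7 clinically healthy client-owned dogs of middle age and from 10 client-owned dogs with osteosarcoma (OS), a malignant bone tumor, that had a primary tumor and had received no treatment. All dogs are labelled as wild type, and the dogs with OS ranged from middle age to old age. Leukocytes were separated on Ficoll, a density gradient that keeps mononuclear cells and holds back most granulocytes, and 1 single-cell library was made per dog with the 10x Genomics 3' kit v3.1. The neutrophils described below are therefore those that stayed with the mononuclear cells.

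Interferons are secreted proteins that warn cells of viral infection. Type I interferons bind a receptor made of IFNAR1 and IFNAR2, the kinases JAK1 and TYK2 then phosphorylate STAT2, and a complex that holds STAT2 and IRF9 switches on a shared set of genes in nearly every cell type. The products recognise foreign RNA, degrade it, stop its translation or tag proteins with the ubiquitin-like protein ISG15, and in blood the strength of this program is read as the summed level of its genes.

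The matrices held 93013 cell barcodes, 39341 from healthy dogs and 53672 from dogs with OS. Total counts of unique molecular identifiers (UMIs) ranged from 27811378 to 46295707 per healthy dog and from 7740230 to 56510134 per dog with OS, and the median per cell from 3567 to 6633 and from 4086.5 to 6648.5. After filters and the removal of cells named as platelets or erythrocytes, 75565 leukocytes were analysed, 32657 from healthy dogs and 42908 from dogs with OS. They comprised 26966 CD4 T cells, 14628 CD8 T and natural killer (NK) cells, 14955 monocytes, 7003 B cells and 5883 neutrophils, with smaller numbers of eosinophils and basophils, dendritic cells, other T cells and plasma cells. Lineages were named from marker genes that did not include any member. Pairs of libraries shared between 0 and 22 barcodes, at most 0.375% of the smaller library. Healthy dog 7 stood apart in its cells, with neutrophils at 39.0% of the cells analysed against 1.74 to 7.35% in the other healthy dogs, and differences of named members between the groups that move by over 1.5 times without this dog are given with and without it below.

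Levels are given below in 2 forms. The share of the members is the percent of all UMIs of a lineage in 1 dog that fell on any of the 31 members. The level of a gene is given as CPM, the UMIs of that gene summed over the cells of a lineage in 1 dog, scaled to a common library size with TMM factors. Counts of UMIs cover the 3' ends of transcripts and depend on how each 3' end is annotated, so levels are compared between dogs and lineages and not between genes.

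A few genes held most member UMIs. Over all cells SAMD9L, an inhibitor of translation that restricts viruses, took 14.7% of member UMIs with 83457. MX2, a dynamin-like GTPase that blocks viral entry into the nucleus, took 12.9% with 73300, and ISG20, an RNA exonuclease, took 12.5% with 70838. DTX3L, a ubiquitin ligase that works with PARP9, followed at 6.51% with 37041 and EPSTI1 at 4.51% with 25682. The makeup differed between lineages. In neutrophils ISG20 alone held 45.7% of member UMIs, and between 35.8 and 91.9% of them in single dogs with a median of 66.2%, whereas in monocytes MX2 led with 20.01% before SAMD9L with 14.8%. In B cells SAMD9L led with 18.8% before EPSTI1 with 13.9%, and in CD4 T cells SAMD9L held 14.2%, DTX3L 13.2% and ISG20 12.6%. The pooled percentages weight dogs by their UMIs, and healthy dog 7 had the most neutrophils. A summed share in neutrophils thus carries the level of ISG20 more than that of any other member.

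The members were not expressed alike in the lineages of a dog. Monocytes held a higher share of member UMIs than each of the 3 lymphocyte lineages in 17 of 17 dogs, and neutrophils in 16 of 17. The exception was OS dog 5, with 0.0595% in neutrophils against 0.0866% in CD4 T cells, 0.0793% in CD8/NK cells and 0.0748% in B cells. In neutrophils ISG20 held 66.2% of member UMIs in the median dog, against 12.8% in CD4 T cells. The shares of the lineages were not compared without ISG20, so the count for neutrophils may rest on this gene. Across the 17 dogs the share in healthy and OS dogs was 0.0659 to 0.114% and 0.0682 to 0.106% of UMIs in CD4 T cells, 0.0809 to 0.421% and 0.0709 to 0.295% in monocytes, and 0.122 to 0.759% and 0.0595 to 0.473% in neutrophils. Each lineage was then compared with CD4 T cells of the same dogs by edgeR's quasi-likelihood test with the dog as a block, in all 17 dogs. A gene was called at a Benjamini-Hochberg adjusted p below 0.01 over all genes and an absolute log2 fold change above 0.58. In monocytes 16 of the 31 members were higher than in CD4 T cells, against 24.5% of all genes tested, and 4 were lower, against 27.6%. In neutrophils 13 were higher, against 21.6% of all genes, and 11 were lower, against 35.7%. In B cells 5 were higher and 9 lower, against 15.9 and 15.8% of all genes, and in CD8/NK cells 3 were higher and 6 lower, against 7.65 and 7.73%. The median log2 fold change of the members was 0.85 in monocytes, 0.09 in neutrophils, -0.21 in B cells and -0.17 in CD8/NK cells, where the median of all genes was -0.11, -0.41, -0.05 and -0.03. In neutrophils the sign was not stable. The median of the members there was -0.05 without healthy dog 7, -0.18 with DESeq2 and 0.46 without the granule gene cluster described below. All genes had medians of -0.45, -0.12 and -0.55 in these fits.

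**Figure D1:**
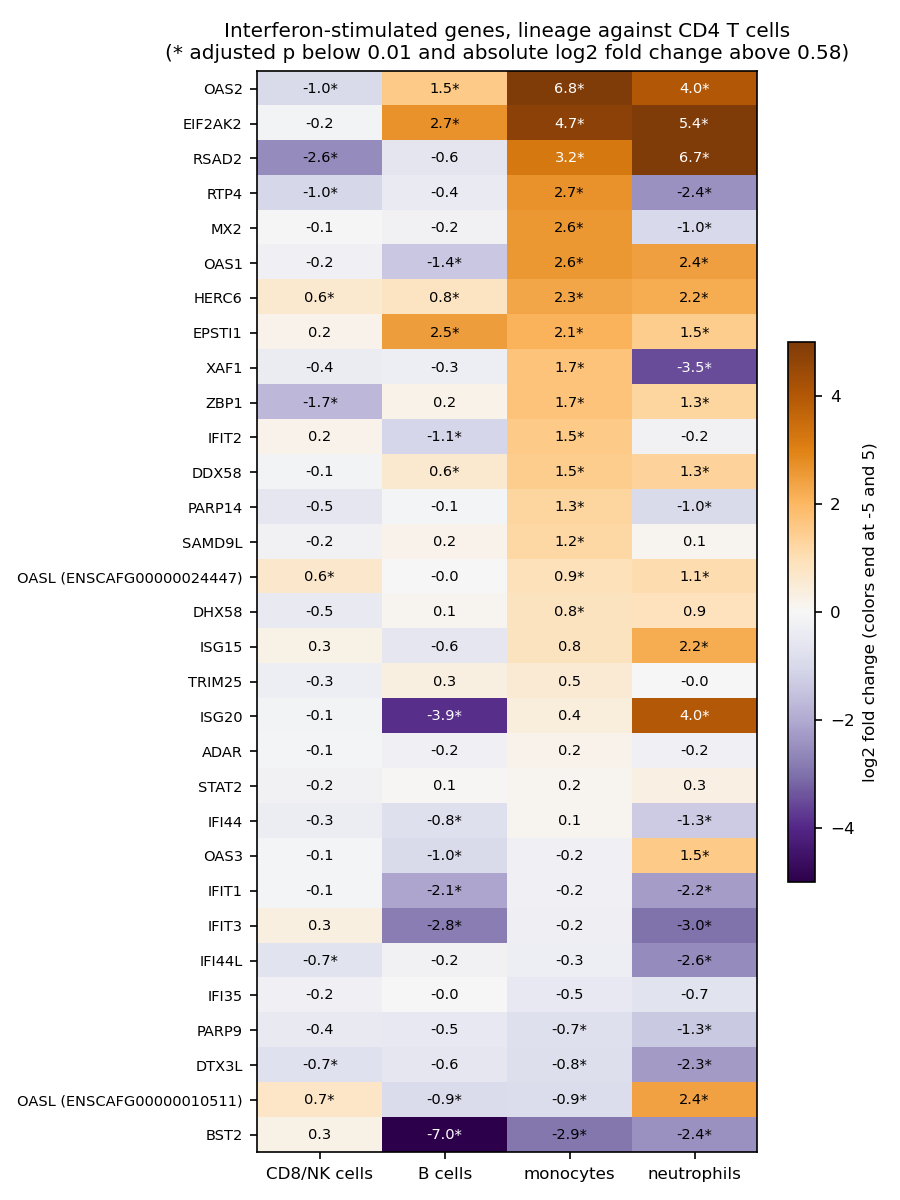
Log2 fold change of each of the 31 members (rows) in CD8/NK cells, B cells, monocytes and neutrophils (columns) against CD4 T cells of the same 17 dogs, from edgeR, with the value printed in each cell and an asterisk where both thresholds were passed. OAS2, EIF2AK2 and RSAD2 lead in monocytes and neutrophils, XAF1, RTP4, MX2 and PARP14 are higher in monocytes and lower in neutrophils, and HERC6 is the member that is higher in all 4 lineages.

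Of the 5 sensors and RNA-binding enzymes, 4 were higher than in CD4 T cells in monocytes, 3 in neutrophils, 2 in B cells and 0 in CD8/NK cells. Among all genes tested 24.5, 21.6, 15.9 and 7.65% were higher in these lineages, and 5 genes are few to set beside such shares. EIF2AK2, the kinase PKR that halts translation on double-stranded RNA, had 0.231, 1.07 and 2.53 CPM as the lowest, median and highest dog in CD4 T cells against 14.0, 28.7 and 66.9 CPM in monocytes, without overlap (log2 fold change 4.73 ± 0.15 (SE), n = 17 dogs, edgeR adjusted p = 1.9e-18). In neutrophils EIF2AK2 ranged from 5.68 over 43.9 to 274 CPM, also higher in 17 of 17 dogs (5.39 ± 0.26, edgeR adjusted p = 3.9e-16). DDX58, the sensor RIG-I that starts interferon induction, was higher in monocytes (log2 fold change 1.46 ± 0.20), neutrophils (1.32 ± 0.26) and B cells (0.62 ± 0.10). ZBP1, a sensor of left-handed nucleic acid that can start cell death, was higher in monocytes (1.70 ± 0.11) and neutrophils (1.26 ± 0.26) and lower in CD8/NK cells, where its median dog had 3.25 CPM against 10.3 CPM in CD4 T cells (-1.68 ± 0.12). DHX58, a regulator of RIG-I, was higher in monocytes at low levels, with 1.16 against 0.847 CPM in the median dog (0.85 ± 0.23). EIF2AK2 was higher in B cells too, at 3.73 to 12.7 CPM (2.69 ± 0.20). ADAR, which edits adenosine in double-stranded RNA, passed the test in no lineage, with 15.4 to 34.7 CPM in monocytes, 13.6 to 26.6 CPM in B cells and 0 to 38.9 CPM in neutrophils.

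The oligoadenylate synthetases, which make the second messenger that activates RNase L, split by lineage. OAS2 showed the largest difference of any member in monocytes, with 0.0911, 0.857 and 5.25 CPM as lowest, median and highest dog in CD4 T cells and 30.5, 108 and 341 CPM in monocytes (log2 fold change 6.77 ± 0.18, edgeR adjusted p = 5.1e-20). The ranges did not overlap and all 17 dogs were higher in monocytes. OAS2 was also higher in neutrophils (3.99 ± 0.39), where the median dog had only 5.94 CPM and the highest 139 CPM, and in B cells (1.53 ± 0.26), and it was lower in CD8/NK cells (-0.96 ± 0.29) at levels of at most 5.91 CPM, a call lost without healthy dog 7 (-0.93, edgeR adjusted p = 0.021). OAS1 was higher in monocytes (2.59 ± 0.17) and neutrophils (2.44 ± 0.28) and lower in B cells (-1.38 ± 0.19), and OAS3 was higher in neutrophils (1.54 ± 0.23) and lower in B cells (-0.97 ± 0.09). OASL, a symbol for relatives of these enzymes, is counted on 2 rows that may share reads, and their split is uncertain. OASL (ENSCAFG00000010511) was higher in neutrophils (2.40 ± 0.16) and CD8/NK cells (0.73 ± 0.13) and lower in monocytes (-0.89 ± 0.20), whereas OASL (ENSCAFG00000024447) was higher in all of them (1.05 ± 0.16, 0.63 ± 0.08 and 0.91 ± 0.10).

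The IFIT proteins, which bind viral RNA ends and block translation, were scarce in all lineages at medians of at most 12.6 CPM. IFIT2 was higher in monocytes than in CD4 T cells (log2 fold change 1.54 ± 0.14), with 12.6 against 4.30 CPM in the median dog. IFIT1 and IFIT3 were lower in neutrophils (-2.24 ± 0.41 and -2.998 ± 0.41, or -3.20 and -4.05 without healthy dog 7) and all 3 were lower in B cells, by -2.08 ± 0.22, -1.07 ± 0.18 and -2.80 ± 0.24 for IFIT1, IFIT2 and IFIT3.

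In the ISG15 and ADP-ribose pathway the members went separate ways. HERC6, the main ligase for ISG15 in mice, was the only member higher than in CD4 T cells in all 4 lineages, at log2 fold changes of 0.59 ± 0.07 in CD8/NK cells, 0.80 ± 0.08 in B cells, 2.34 ± 0.13 in monocytes and 2.22 ± 0.28 in neutrophils. It was higher in 17, 17, 17 and 16 of 17 dogs. DTX3L and its partner PARP9, which bind each other and add ADP-ribose and ubiquitin, were both highest in CD4 T cells among these lineages by median dog. DTX3L had a median of 103 CPM in CD4 T cells and 53.8 CPM in monocytes (-0.81 ± 0.11), and it was lower in neutrophils (-2.27 ± 0.25) and CD8/NK cells (-0.72 ± 0.06) as well. PARP9 was lower in monocytes (-0.75 ± 0.12) and neutrophils (-1.35 ± 0.27). PARP14, another ADP-ribosyltransferase, was higher in monocytes (1.28 ± 0.13) and lower in neutrophils (-0.96 ± 0.30). ISG15 itself passed the test in neutrophils (2.22 ± 0.47), where dogs ran from 0 over 13.6 to 887 CPM, and not in monocytes (0.83 ± 0.29, edgeR adjusted p = 0.013). TRIM25, a ubiquitin ligase of the RIG-I pathway, and STAT2, the transcription factor of the response, passed the test in no lineage.

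Of the other antiviral proteins, ISG20 was higher in neutrophils and lower in B cells than in CD4 T cells. Its lowest, median and highest dog had 26.4, 99.0 and 202 CPM in CD4 T cells and 428, 1544 and 3137 CPM in neutrophils, with no overlap (log2 fold change 3.97 ± 0.19, edgeR adjusted p = 1.4e-16). In B cells ISG20 reached only 1.22 to 24.3 CPM (-3.89 ± 0.11). EPSTI1, named for epithelial-stromal interaction, had the largest positive difference in B cells among members at a mean of at least 10 CPM, with 73.3 to 196 CPM against 12.06 to 36.8 CPM in CD4 T cells (2.48 ± 0.08, higher in 17 of 17 dogs), and it was also higher in monocytes (2.11 ± 0.13) and neutrophils (1.46 ± 0.30). MX2 was higher in monocytes (2.61 ± 0.11) and lower in neutrophils (-0.99 ± 0.32), and XAF1, a promoter of cell death, was higher in monocytes (1.72 ± 0.15) and lower in neutrophils, where its median dog had 1.13 CPM (-3.48 ± 0.26). RTP4, a chaperone of membrane receptors that also binds nucleic acid, was higher in monocytes (2.68 ± 0.13) and lower in neutrophils (-2.42 ± 0.47, or -3.65 without healthy dog 7). RSAD2, or viperin, which makes a nucleotide that ends viral RNA chains, was nearly absent from CD4 T cells at 0 to 0.765 CPM and ranged from 0 over 13.4 to 354 CPM in neutrophils (6.66 ± 0.44). In CD8/NK cells RSAD2 was lower at no more than 0.629 CPM (-2.57 ± 0.57). Without healthy dog 7 it stood at -3.70 there but did not pass (edgeR adjusted p = 0.011). IFI44L, of unknown biochemical function, was lower in neutrophils (-2.57 ± 0.33) and CD8/NK cells (-0.67 ± 0.06). BST2, a membrane protein that tethers budding virus, had at most 19.0 CPM in any dog of these lineages, with a median of 8.82 CPM in CD8/NK cells, 0.395 CPM in monocytes and 0 in neutrophils and B cells.

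Genes of the wider pathway were read from 4 lists in the same tests, of which 93 genes in all, members included, had been kept out of the clustering. Counts in these lists stand beside the shares of all genes tested, which were 24.5% higher and 27.6% lower in monocytes, 21.6 and 35.7% in neutrophils, 15.9 and 15.8% in B cells and 7.65 and 7.73% in CD8/NK cells. Of other interferon-induced genes, 11 of 32 were higher and 7 lower in monocytes, led by DDX60, a helicase that assists RNA sensing (log2 fold change 6.23). In neutrophils 6 of 31 were higher and 12 lower, with TRIM22 lowest in p (-4.87), in B cells 3 of 31 higher and 10 lower with GBP1 lowest in p (-1.75), and in CD8/NK cells 2 of 33 higher and 4 lower with IFI30 lowest in p (-1.60). Of genes for nucleic acid sensing and interferon induction, 7 of 14 were higher and 1 lower in monocytes, led by STING1, the adaptor of DNA sensing (5.34). In B cells 6 of 14 were higher and 1 lower, led by IRF8 (8.02), in neutrophils 3 of 13 were higher and 6 lower, led by the Toll-like receptor adaptor MYD88 (1.85), and in CD8/NK cells 1 of 13 was higher and 4 lower, led by IRF8 (3.84). Of receptors and signal transduction, 6 of 11 genes were higher and 3 lower in monocytes (IRF2 1.08), 4 and 3 in neutrophils (JAK1 -1.41), 3 and 4 in B cells, and 1 and 1 in CD8/NK cells, where PTPN6 had the smallest p (0.37, under the threshold of size). The interferon genes themselves were near the limit of detection, and IFNG, at a median of 0 CPM in B cells, monocytes and neutrophils, was lower there than in CD4 T cells, whose own median was between 0.302 and 0.340 CPM by scaling. In monocytes 2 of 3 interferon genes tested were higher and 1, IFNG, was lower. IFNK, the type I interferon kappa, had 0 to 2.20 CPM with a median of 0.430 in monocytes against at most 0.198 CPM in CD4 T cells, and was higher in 16 of 17 dogs (log2 fold change 3.88 ± 0.39, edgeR adjusted p = 5.6e-09). IFNB1, interferon beta, was the other, at a median of 0 and at most 1.504 CPM in monocytes and at 0 in the CD4 T cells of every dog. In B cells and neutrophils IFNG was the 1 gene tested, and in CD8/NK cells 0 of 2 passed.

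Healthy dogs and dogs with OS overlapped in the summed share of members in every lineage. In monocytes the lowest, median and highest healthy dog had 0.0809, 0.102 and 0.421% of UMIs on members and the dogs with OS 0.0709, 0.181 and 0.295% (SD 0.121 and 0.0701). Of the dogs with OS 9 of 10 lay above the healthy median, and 6 of 10 lay above every healthy dog except healthy dog 7. OS dog 3 had the lowest share of all dogs in monocytes. In neutrophils the healthy dogs had 0.122, 0.238 and 0.759% and the dogs with OS 0.0595, 0.216 and 0.473%, and only 4 of 10 dogs with OS lay above the healthy median. In lymphocytes the spans were narrow. CD4 T cells had 0.0659, 0.0764 and 0.114% in healthy dogs and 0.0682, 0.0867 and 0.106% in dogs with OS, with 8 of 10 above the healthy median. CD8/NK cells had 0.0535, 0.0718 and 0.0998% against 0.0644, 0.0790 and 0.105%, with 7 of 10 above, and B cells 0.0607, 0.0683 and 0.123% against 0.0580% as lowest and 0.112% as highest dog with OS (mean 0.0882 ± 0.0199%, SD), with 9 of 10 above the healthy median. Over all cells the values were 0.0685, 0.0837 and 0.3004% against 0.0708, 0.110 and 0.171%. That sum carries the makeup of each dog's cells. With neutrophils taken out of it, a choice made after seeing the data, the values were 0.0674, 0.0816 and 0.219% against 0.0687, 0.109 and 0.169%, and the mean difference was 0.0193 instead of 0.00885 percentage points, while without healthy dog 7 it was 0.0399 with neutrophils and 0.0389 without them.

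**Figure D2:**
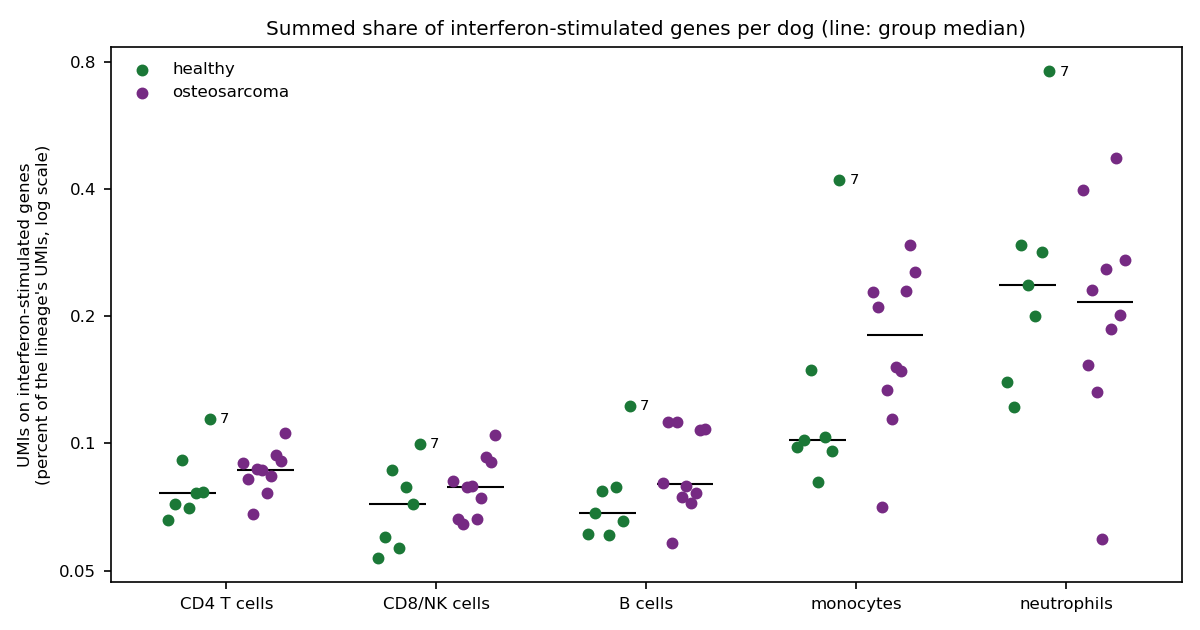
Percent of UMIs on the 31 members (log scale) for each of the 17 dogs in 5 lineages, with healthy dogs in green, dogs with OS in purple, group medians as lines and healthy dog 7 marked. The monocytes of 6 dogs with OS lie above those of every healthy dog except dog 7, which is the highest of all dogs in CD4 T cells, B cells, monocytes and neutrophils.

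A single dog set much of this comparison. Healthy dog 7 had the highest share of the 17 dogs in all lineages named above except CD8/NK cells, where OS dog 10 was higher at 0.105%. The mean share in monocytes was 0.0334 percentage points higher in OS than in healthy dogs with this dog and 0.0784 without it. In neutrophils the difference was -0.0545 with it and 0.0235 without it. In CD4 T cells it was 0.00543 and 0.0110, in CD8/NK cells 0.00739 and 0.0119, in B cells 0.0118 and 0.0195, and over all cells 0.00885 and 0.0399.

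Gene by gene, no member passed the test between dogs with OS and healthy dogs. edgeR called 0 of 31 members in all cells, CD4 T cells, monocytes and neutrophils, 0 of 30 in CD8/NK cells and dendritic cells, 0 of 29 in B cells and other T cells, and 0 of 23 in eosinophils and basophils. It called 0% of all genes in each of them, and DESeq2 also called 0 members, while it called 3 genes of all genes over all cells, 2 in monocytes and 1 in eosinophils and basophils. At an unadjusted p below 0.05 edgeR had 1 member in all cells (5.76% of all genes), 2 in CD4 T cells (3.59%), 2 in CD8/NK cells (3.55%), 5 in B cells (4.96%), 1 in monocytes (6.08%) and 2 in neutrophils (8.99%). It had 1 in eosinophils and basophils (5.88%), 0 in dendritic cells (3.72%) and 1 in other T cells (5.4%). DESeq2 had 2, 1, 2, 5, 2 and 0 in the first 6 of these, beside 6.46, 3.44, 3.11, 3.85, 6.07 and 7.68% of all genes, and 0, 1 and 0 in the last 3, beside 3.67, 2.86 and 3.98%. With recorded age, which overlapped between the groups and reached higher in dogs with OS, as a covariate edgeR had 0, 1, 0, 1, 1 and 0 in the first 6, beside 4.66, 3.05, 3.11, 4.44, 4.77 and 5.4% of all genes. With the replicate number as a block it had 0, 1, 0, 1, 0 and 2, beside 3.72, 2.55, 2.12, 3.21, 5.17 and 6.8%. The block fit kept only replicate numbers found in both groups, so OS dogs 8, 9 and 10 were left out of it. They had the highest shares of members in monocytes among the dogs with OS, so its counts do not show the block alone. Both fits called 0 members. The signs leaned up in monocytes and lymphocytes and down in neutrophils. The log2 fold change was positive for 28 of 31 members in monocytes, 26 of 29 in B cells, 25 of 31 in CD4 T cells and 23 of 30 in CD8/NK cells, and for 4 of 31 in neutrophils. Over all cells it was positive for 21 of 31 members (median 0.16), and for 27 of 31 (median 0.27) with neutrophils taken out. The median over the members was 0.30 in monocytes, 0.25 in B cells, 0.19 in CD4 T cells, 0.19 in CD8/NK cells and -0.43 in neutrophils, beside a median over all genes between -0.01 and 0.03. The members vary together across dogs (correlations are given with the spread between dogs), so these counts do not add up independent differences.

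Without healthy dog 7 the picture moved. edgeR still called 0 members in each of the 6 main sums, with a smallest adjusted p among members of 0.258 over all cells, 0.429 in monocytes, 0.650 in B cells, 0.656 in neutrophils, 0.956 in CD4 T cells and 1.00 in CD8/NK cells. At an unadjusted p below 0.05 there were 25 of 31 members in monocytes (6.8% of all genes), 12 of 29 in B cells (6.19%), 10 of 27 in neutrophils (7.54%), 7 of 31 in CD4 T cells (4.26%), 4 of 30 in CD8/NK cells (3.98%) and 19 of 31 in all cells (8.01%). The log2 fold change was then positive for 31 of 31 members in monocytes, with a median of 1.00, and for 23 of 27 in neutrophils, with a median of 1.01. Over all cells it was positive for 30 of 31 (median 0.75). In lymphocytes it was positive for 28 of 29 in B cells (0.40), 29 of 31 in CD4 T cells (0.31) and 25 of 30 in CD8/NK cells (0.33). No reason to leave this dog out is given by the labels, and 6 healthy dogs then remain. Healthy dog 7 stands out on these same members, so leaving it out raises the differences largely by construction. With any other dog left out, edgeR had 0 to 2 members in monocytes at an unadjusted p below 0.05.

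**Figure D3:**
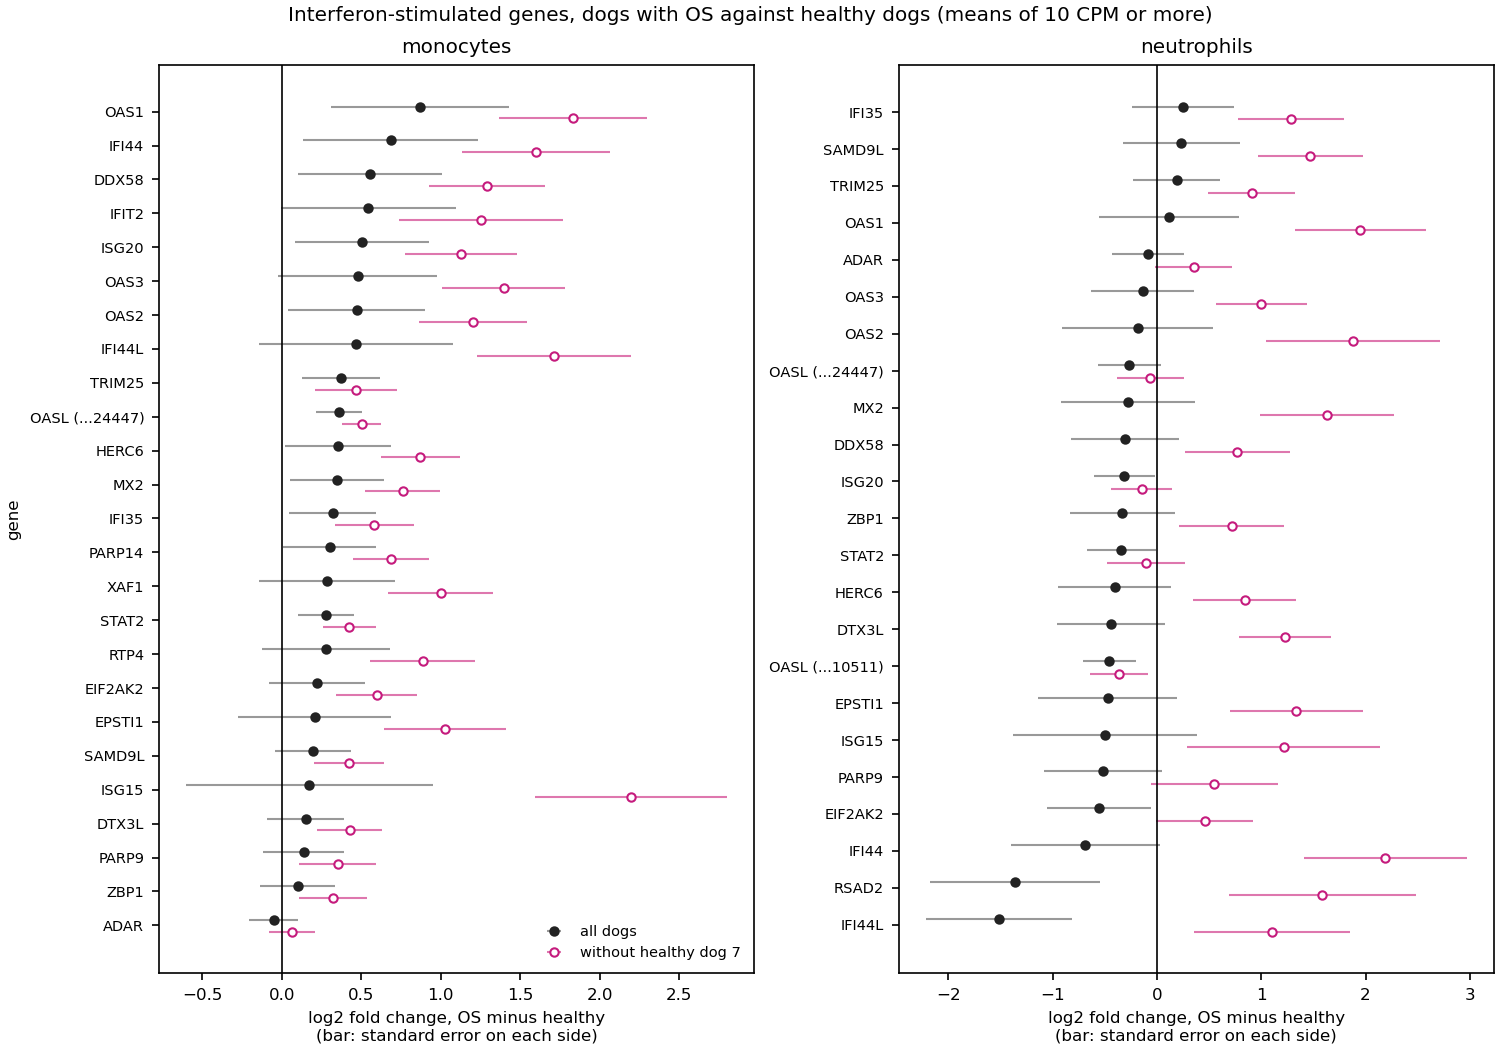
Log2 fold change (points) and standard error (bars) of OS against healthy dogs for members at a mean of at least 10 CPM in monocytes (left) and neutrophils (right), from edgeR with all 17 dogs (filled) and without healthy dog 7 (open). The open points lie to the right of the filled ones for all genes shown, and in neutrophils most lie above 0 where the filled ones lie below it.

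In monocytes the member with the smallest p was OASL (ENSCAFG00000024447), with 19.96, 21.4 and 39.2 CPM as lowest, median and highest healthy dog and 23.6, 33.4 and 36.0 CPM in dogs with OS. All 10 dogs with OS lay above the healthy median, while healthy dog 7 was above all of them (log2 fold change 0.36 ± 0.14, unadjusted p = 0.021, edgeR adjusted p = 0.752). OAS1 showed how the dogs were arranged. The healthy dogs had 19.2, 27.2 and 260 CPM and the dogs with OS 12.6, 94.2 and 264 CPM (0.87 ± 0.56, edgeR adjusted p = 0.859, and 1.83 ± 0.47 with adjusted p = 0.429 without healthy dog 7). Of the healthy dogs 5 of 7 lay between 19.2 and 29.5 CPM, with healthy dog 3 at 78.1 and healthy dog 7 at 260 CPM, and 9 of 10 dogs with OS lay between 62.1 and 264 CPM, with OS dog 3 at 12.6 CPM. STAT2 had 12.6, 15.2 and 27.7 CPM against 11.45, 21.7 and 28.4 CPM, with 9 of 10 dogs with OS above the healthy median (0.28 ± 0.18, edgeR adjusted p = 0.859, and 0.42 with adjusted p = 0.662 without healthy dog 7).

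In lymphocytes the following genes had the smallest p among members at a mean of at least 10 CPM. HERC6 in CD4 T cells had 8.28, 11.04 and 15.2 CPM in healthy dogs and 11.2, 14.9 and 20.3 CPM in dogs with OS, all 10 of which lay above the healthy median (0.44 ± 0.15, unadjusted p = 0.0097, edgeR adjusted p = 0.997). OAS1 and OASL (ENSCAFG00000024447) followed in CD4 T cells at 0.52 ± 0.34 and 0.23 ± 0.15, or at 0.79 for OAS1 without healthy dog 7 and 0.15 for OASL without OS dog 2. Below 10 CPM, DHX58 stood at 0.58 ± 0.26 (unadjusted p = 0.040). In CD8/NK cells IFI44, which curbs cell growth, had 18.9, 23.2 and 39.0 CPM against 22.3, 29.8 and 65.2 CPM (0.51 ± 0.20, unadjusted p = 0.020), with OS dog 10 the highest. OASL (ENSCAFG00000024447) stood at 0.31 ± 0.14 and OAS1 at 0.68 ± 0.41 there, and OAS1 at 1.11 without healthy dog 7 (unadjusted p = 0.0095, edgeR adjusted p = 1.00). In B cells DTX3L had 43.4, 66.4 and 119 CPM against 54.8, 88.9 and 136 CPM (0.49 ± 0.20, unadjusted p = 0.021), and IFI44 and PARP9 stood at 0.73 ± 0.32 and 0.55 ± 0.25. OAS1, below 10 CPM on average in B cells, had 1.67, 2.53 and 8.75 CPM in healthy dogs and 0, 9.30 and 24.3 CPM in dogs with OS (1.65 ± 0.50, unadjusted p = 0.0031, edgeR adjusted p = 0.885), and 2 dogs with OS, dogs 3 and 5, were at 0. B cells had as few as 275892 UMIs in a dog, and at such depth 0 is not told apart from a low level. Over all cells OASL (ENSCAFG00000024447), MX2 and TRIM25 had the smallest p at that level, at 0.29 ± 0.12, 0.52 ± 0.32 and 0.29 ± 0.24. Without healthy dog 7 MX2 stood at 0.88 (unadjusted p = 0.0049, edgeR adjusted p = 0.426) and TRIM25 at 0.45, and TRIM25 stood at 0.19 without healthy dog 2. The groups overlapped for each of these genes.

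In neutrophils IFI44L had 0, 4.25 and 93.0 CPM in healthy dogs and 0, 6.46 and 19.5 CPM in dogs with OS, where healthy dog 7 held the value of 93.0 CPM (-1.51 ± 0.70, unadjusted p = 0.041, edgeR adjusted p = 0.539). Without healthy dog 7 it was 1.10, and DESeq2 with all 17 dogs gave 0.91, so its direction changed with this dog and with the tool. RSAD2 likewise had 0, 1.81 and 314 CPM against 0, 12.1015 and 63.6 CPM, with the highest value in healthy dog 7 (-1.36 ± 0.82), and stood at 1.59 without this dog. OASL (ENSCAFG00000010511) had 37.9, 45.6 and 66.6 CPM against 9.33, 41.1 and 54.7 CPM (-0.46 ± 0.26). The lowest value, 9.33 CPM, was that of OS dog 5. ISG20, with the most member UMIs there, had 745, 1750.4 and 2781 CPM against 391, 1291 and 2445 CPM (-0.31 ± 0.29), from OS dog 5 at the bottom to healthy dog 7 at the top, and stood at -0.15 without healthy dog 7.

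Neutrophils were of 2 kinds in these data, and the kinds differed in members. A cluster of 666 cells led by CAMP and LTF, genes of granule proteins that are made in immature neutrophils, had a share of 0.0172 to 0.0273% on members in the 5 dogs with at least 35 such cells. They made up 59.0% of the neutrophils of OS dog 5, 40.0% of OS dog 2, 39.9% of OS dog 9, 24.5% of OS dog 4 and 12.8% of OS dog 7, against 0.4662 to 6.62% in the other 5 dogs with OS and 0.812 to 7.39% in healthy dogs. Across dogs their percent went with a lower share of members in neutrophils (Pearson r = -0.654, Spearman rho = -0.596, 17 dogs, a description). These cells are counted in that share and are low in members, so a negative correlation is largely given by construction. With this cluster taken out, a choice made after seeing the data, the share was 0.143, 0.270 and 0.779% in healthy dogs and 0.235, 0.305 and 0.578% in dogs with OS, and 8 of 10 dogs with OS lay above the healthy median instead of 4. The mean difference was then 0.0338 percentage points, or 0.110 without healthy dog 7, and OASL (ENSCAFG00000010511) stood at 0.0099 instead of -0.46. The log2 fold change was positive for 15 of 31 members in neutrophils without the cluster, with a median of -0.02, instead of 4 of 31 and -0.43. With DESeq2 on all neutrophils it was positive for 9 of 31 (median -0.27). edgeR called 0 members without the cluster too.

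The wider pathway did not pass the test between the groups either. Of 11 genes for receptors and signal transduction, 14 for sensing and induction and 33 other interferon-induced genes, edgeR called 0 in every lineage. The smallest unadjusted p in these lists belonged over all cells to SOCS1 (log2 fold change 1.91), TLR7 (-0.75) and GBP6 (0.53) and in monocytes to IFNLR1 (log2 fold change -0.99), STING1 (0.26) and SHISA5 (0.51). In neutrophils they were IFNGR1, a subunit of the receptor for interferon gamma (-0.64, unadjusted p = 0.0033), IRF3 (0.47) and PLSCR1 (1.30), in CD4 T cells SOCS1 (1.67), TLR3 (-0.68) and GBP6 (0.53), in CD8/NK cells SOCS1 (2.75), TBK1 (-0.23) and HELZ2 (-0.98), and in B cells IFNLR1 (1.35), IRF8 (0.23) and LY6E (0.35). Of 4 interferon genes found by name, IFNG could be tested in CD8/NK cells, where it is made on activation. It lay at 0 to 1.03 CPM in healthy dogs and at 0 to 24.5 CPM in dogs with OS, with the highest value in OS dog 4 and the next at 4.55 CPM (unadjusted p = 0.0043, edgeR adjusted p = 1.00).

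Members varied more between dogs than other genes did, and they varied together. The SD of log2(CPM + 1) across the 17 dogs had a median of 0.717 over the 25 members at a mean of at least 10 CPM in monocytes and 0.282 over all genes at that level, and 25 of 25 members lay above the median of all genes. In neutrophils the medians were 1.80 and 0.578 (23 of 23 above), in B cells 0.531 and 0.342, in CD8/NK cells 0.456 and 0.305 and in CD4 T cells 0.406 and 0.250. A mean of at least 10 CPM can rest on a single high dog, which also raises the SD. IFI44L in neutrophils, for example, was highest in healthy dog 7. The SD without this dog was not computed, and genes were not matched for level. ISG15 varied most in monocytes, neutrophils and B cells, with an SD of 1.68, 3.40 and 1.25, and OAS1 in CD4 T and CD8/NK cells, with 0.797 and 0.959. ADAR varied least in monocytes and B cells (0.298 and 0.254), PARP9 in CD4 T cells (0.205), OASL (ENSCAFG00000024447) in CD8/NK cells (0.292) and OASL (ENSCAFG00000010511) in neutrophils (0.614). ISG15 in monocytes ran from 2.96 CPM in OS dog 3 to 99.3 CPM in OS dog 9 and 199 CPM in healthy dog 7, whereas ADAR ran from 14.4 to 32.5 CPM.

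The median Pearson correlation between 2 members across the 17 dogs was 0.838 in monocytes, over 300 pairs of members, and 0.007 between 2 genes in general. Of the member pairs 90.7% exceeded 0.5, against 13.2% of all pairs. The median was 0.615 in neutrophils, 0.419 in B cells, 0.312 in CD4 T cells and 0.243 in CD8/NK cells, against 0.025, 0.015, 0.002 and 0.003 for all genes. Without healthy dog 7 it was 0.803 in monocytes, 0.536 in neutrophils, 0.386 in B cells, 0.269 in CD4 T cells and 0.210 in CD8/NK cells. These correlations are a description: all genes of a dog share 1 library, its depth and its mixture of cells.

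**Figure D4:**
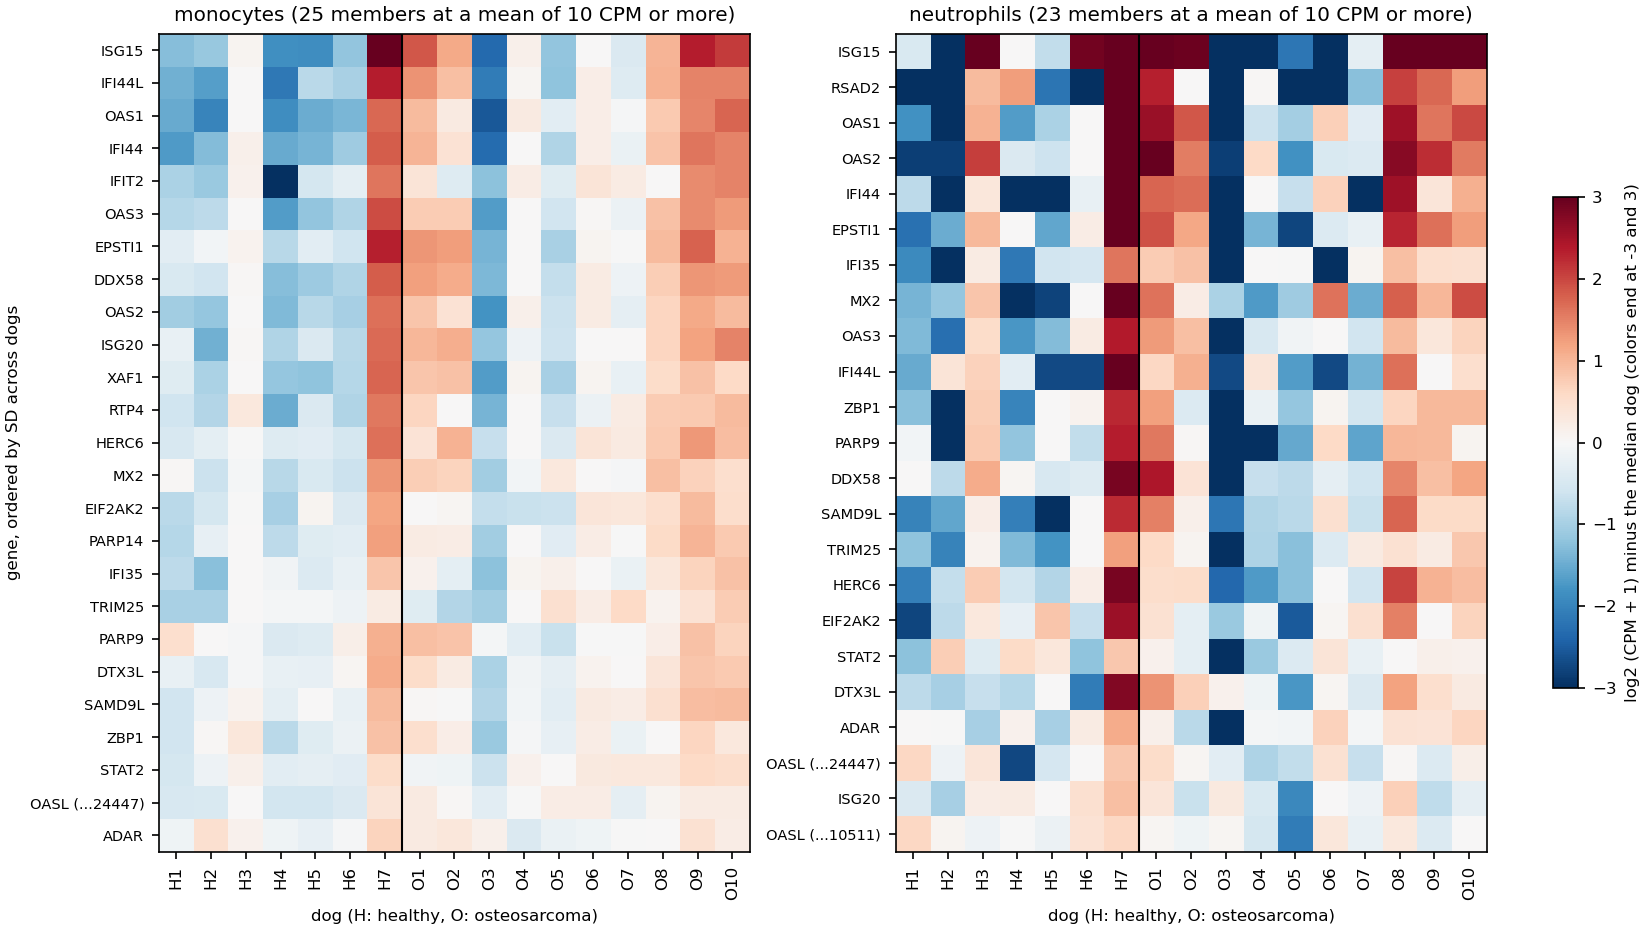
Log2(CPM + 1) of each member at a mean of at least 10 CPM minus its median over dogs, in monocytes (25 members, left) and neutrophils (23 members, right), with the 7 healthy dogs (H1 to H7) and 10 dogs with OS (O1 to O10) as columns and colors ending at -3 and 3. In monocytes healthy dog 7 and OS dogs 1, 8, 9 and 10 are high and OS dog 3 is low over most members at once.

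In monocytes, where the members went together most closely, OS dogs 9, 10, 8, 1 and 2 had shares of 0.295, 0.254, 0.229, 0.227 and 0.210%, and the other 5 dogs with OS lay between 0.0709% (OS dog 3) and 0.152% (OS dog 6). Healthy dogs lay between 0.0809 and 0.104% apart from healthy dog 3 at 0.149% and healthy dog 7 at 0.421%. Healthy dog 7 was the highest dog for 21 of 25 members in monocytes and 22 of 23 in neutrophils. On CPM without TMM factors it was the highest for 24 of 25 and 22 of 23, and for 4.02% of all genes in each of these lineages. With TMM factors its members stood at a median of 3.202 times the median of the other dogs in monocytes and 6.29 times in neutrophils, and at 1.42, 1.34 and 1.27 times in CD4 T, B and CD8/NK cells. In the lymphocytes the members highest in this dog were 7 of 21 in CD4 T cells, 3 of 19 in B cells and 1 of 21 in CD8/NK cells. Without TMM factors they were 5 of 21, 4 of 19 and 0 of 21, where this dog was the highest for 3.40, 4.64 and 2.59% of all genes.

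Which lineages share the response within a dog was read from the shares on a log2 scale. CD4 T and CD8/NK cells of a dog were closest, with a Pearson r of 0.931 and a Spearman rho of 0.949 over 17 dogs, and 0.919 without the 2 dogs farthest from the median. CD4 T cells and monocytes followed with 0.874 and 0.846 (0.827 without the 2 farthest), then B cells and monocytes with 0.814 and 0.819 (0.856), CD4 T and B cells with 0.769 and 0.708 (0.663), CD8/NK cells and monocytes with 0.758 and 0.797 (0.718), and CD8/NK and B cells with 0.661 and 0.637 (0.549). Within the 10 dogs with OS the r of CD4 T and CD8/NK cells was 0.929 and that of CD4 T cells and monocytes 0.769, and within the 7 healthy dogs 0.926 and 0.941. The Spearman rho was 0.976 and 0.745 in dogs with OS and 0.964 and 0.714 in healthy dogs. Without healthy dog 7 the r of these 6 pairs was, in the order given, 0.935, 0.823, 0.761, 0.702, 0.713 and 0.596.

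Neutrophils went less closely with the other lineages on this measure. Their r was 0.530 with monocytes (rho 0.444), 0.480 with CD4 T cells (0.512), 0.460 with CD8/NK cells (0.532) and 0.207 with B cells (0.191). Without the 2 farthest dogs it was 0.402, 0.198, 0.485 and 0.056, so that the values with CD4 T and B cells rest on those dogs. Without healthy dog 7 it was 0.337, 0.262, 0.331 and -0.048. Within the 7 healthy dogs, healthy dog 7 included, it was 0.835, 0.906, 0.814 and 0.812, and within the 10 dogs with OS 0.419, 0.169, 0.262 and -0.125. The Spearman rho was 0.429, 0.821, 0.750 and 0.429 in healthy dogs and 0.552, 0.394, 0.430 and -0.127 in dogs with OS. With monocytes the order of the groups was thus the reverse by rho. The difference between the groups was not tested. These values changed with the cells and weights used. With the granule gene cluster taken out, the r of neutrophils was 0.835 with monocytes, 0.764 with CD4 T cells, 0.685 with CD8/NK cells and 0.673 with B cells. Without SAMD9L, MX2 and ISG20, the 3 members with the most UMIs, the r of monocytes and neutrophils was 0.885, and with all members weighted equally it was 0.912. Gene by gene, the r between monocytes and neutrophils across dogs had a median of 0.733 over 21 members and 0.276 over all 5533 genes compared, and 18 of 21 members exceeded 0.5, against 22.3% of all genes. For CD4 T and CD8/NK cells the medians were 0.795 and 0.714, where 16 of 20 members and 77.9% of all genes exceeded 0.5, for CD4 T cells and monocytes 0.697 and 0.570, for B cells and monocytes 0.640 and 0.434, and for B cells and neutrophils 0.490 and 0.216. Lineages of 1 dog share a library, so that all genes are alike between them to some degree, and the values of all genes are given for that reason.

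**Figure D5:**
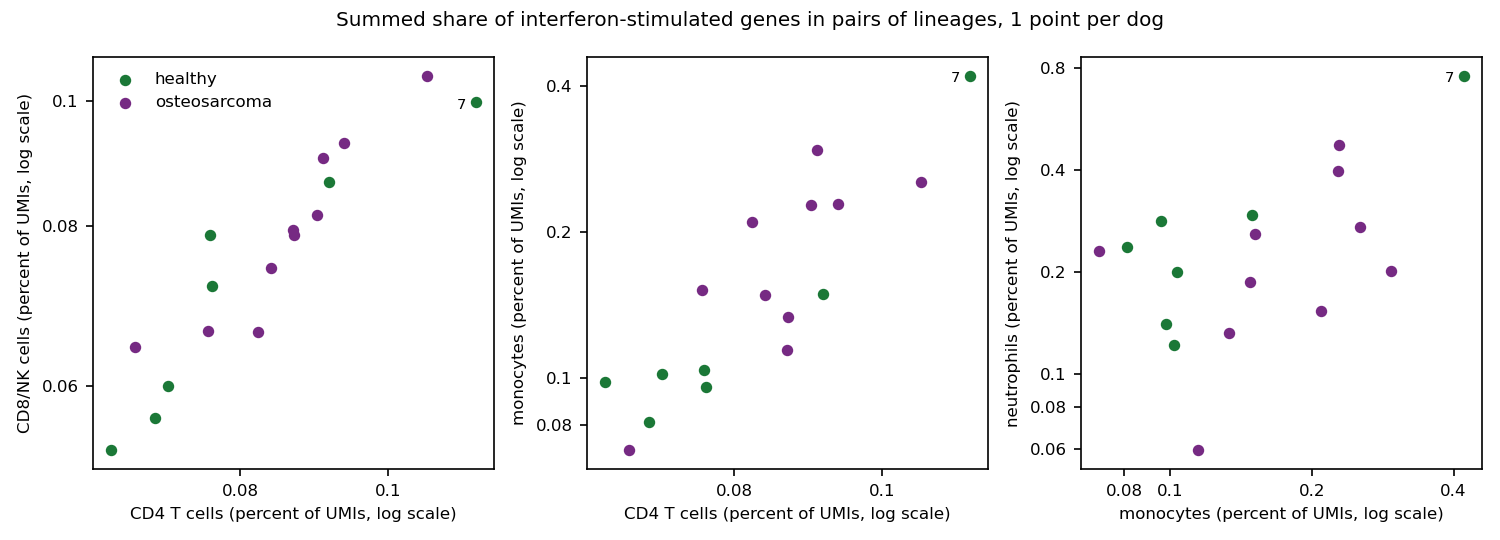
Percent of UMIs on members in pairs of lineages of the same dog on log scales, 1 point per dog, healthy in green and OS in purple with healthy dog 7 marked. Points follow a line for CD4 T against CD8/NK cells (r = 0.931) and CD4 T cells against monocytes (r = 0.874), and scatter for monocytes against neutrophils (r = 0.530).

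Median UMIs per cell and the percent of neutrophils moved with these shares. The share of members fell with the median UMIs per cell of a dog, with a Pearson r between -0.310 (B cells) and -0.544 (CD4 T cells). That median was taken over the cells of all lineages of a dog, so it is not the depth of the lineage itself. It also follows the makeup of the cells, because median UMIs were 1792 in neutrophils, 5661 in CD4 T cells and 11128 in monocytes. This median and the percent of neutrophils are therefore not independent measures. The share went up with the percent of neutrophils among the cells of a dog. In the single lineages other than neutrophils r lay between 0.450 (CD8/NK cells) and 0.628 (monocytes). The Spearman rho with the percent of neutrophils was 0.453 in CD4 T cells, 0.471 in CD8/NK cells, 0.353 in B cells and 0.485 in monocytes. Healthy dog 7 lies far out on this axis, at 39.0% neutrophils against at most 11.3% in any other dog. It also had the lowest median UMIs per cell of the 17 dogs, 3567, and OS dog 10 the next lowest, 4086.5. From 16 neutrophil markers counted in lymphocytes, RNA from neutrophils could make up at most 3.03% of the UMIs in CD4 T cells of healthy dog 7 and so at most 0.0230 of its share of 0.114%. In its CD8/NK cells and B cells the bound was 0.00875 of 0.0998% and 0.00284 of 0.123%. The largest bound of any dog was in CD8/NK cells of OS dog 1, at most 6.04% of UMIs and 0.0240 of a share of 0.0816%. In CD4 T cells OS dog 10 had the largest bound in UMIs, 5.08%, but a smaller one in member share than healthy dog 7, 0.0138 of 0.106%. The part of neutrophil RNA in the differences between dogs was not tested. The part of depth in the differences between dogs was not tested.

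Member UMIs of a lineage were counted in many cells but not evenly. A background from free RNA in the droplets was not estimated for single cells. After thinning each cell to 2000 UMIs, monocytes carried a mean of 1.37 to 8.60 member UMIs per cell (median dog 3.00), CD4 T cells 1.28 to 2.22 (1.63), CD8/NK cells 1.06 to 2.13 (1.53) and B cells 1.11 to 2.31 (1.52). Neutrophils carried 0.591 to 14.5 (4.17), in 14 dogs and in the 37.5% of their cells that were deep enough. Monocytes with no member UMI made up 3.82% in the dog with the fewest and 33.5% in the dog with the most. The 5% of cells with the most member UMIs held 21.1% of member UMIs in monocytes, 21.9% in neutrophils, 20.7% in CD4 T cells, 20.6% in B cells and 17.9% in CD8/NK cells in the median dog. In neutrophils the median was 15.4% over 5 healthy dogs and 24.8% over 9 dogs with OS. The cluster led by CAMP and LTF had a median of 5505 UMIs per cell and the other neutrophils 1721, and the part of this in the difference was not tested. Counting noise alone at the same mean, as a Poisson distribution gives it, would put 11.7, 10.7, 14.3, 14.8 and 14.8% there. The measured value exceeded that of counting noise in 17 of 17 dogs for monocytes, CD4 T and B cells, in 16 of 17 for CD8/NK cells and in 14 of 14 for neutrophils. The same value was not computed for other genes, so the excess cannot be called particular to the members. The leading genes of each cluster were listed without the members, also when the members were allowed into the clustering. These lists therefore cannot show whether members led any cluster. T and NK cells were clustered a second time on their own, and the other lineages were not, so that smaller groups of cells within monocytes, neutrophils or B cells were not looked for.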

How the data were processed

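The authors deposited 1 matrix of UMI counts per dog, from Cell Ranger 7.0.0 and the dog genome CanFam3.1 per the submitters' processing notes. Whether introns were counted in these matrices is not given in the sources used here. The deposited counts are raw, with 0 columns of per-sample values unused. Cells with 200 to 4500 genes, 500 to 20000 UMIs and at most 10% mitochondrial UMIs were kept (84345), 3938 cells with the highest Scrublet doublet scores were removed, and 80407 were clustered (scanpy 1.11.5, leidenalg 0.10.2, Python 3.11.15) without 93 interferon-related genes. Clusters were named from markers, with the thresholds of the second level set after the clusters were seen. Cells named as platelets were left out, 4638 in all, with 1489 from healthy dogs and 3149 from dogs with OS. Those named as erythrocytes were left out too, 204 in all, with 30 and 174. UMIs were summed per dog and lineage (at least 25 cells, genes with at least 10 counts) and tested with edgeR 4.0.16 (TMM, quasi-likelihood, R 4.3.3), which was tested on simulated data. A call needed a Benjamini-Hochberg adjusted p under 0.01 over all genes tested, together with a log2 fold change beyond 0.58 in size. DESeq2 1.42.0, recorded age as a covariate, the replicate number as a block, other filters, doublets kept, other clusterings and each dog left out were alternatives. The dog was the replicate, and intervals between dogs include both technical and biological spread. Correlations used log2 values of shares and of CPM, with 1 added to CPM. Median UMIs per cell and the percents of neutrophils and of granule gene cells entered them without log2.

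The members and lists were chosen with earlier results of these data known. Genes named with values were the 3 members with the smallest p per lineage between groups at a mean of at least 10 CPM, the 3 with the largest difference in each direction against CD4 T cells, the 5 with the most UMIs, those with the largest and smallest SD, and the gene with the smallest p of each related list. 1 such gene is not reported here. Other members were named to describe their families after their values had been seen.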

Additional observations from a re-analysis of the deposited data

Results flagged for a closer look

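Healthy dog 7 lay far from the other healthy dogs in its summed share of member UMIs. By Dixon's ratio, the gap to the nearest dog over the range of the group, it passed the 95% critical value in 7 of 20 groups of dogs tested, and no other dog did in any group. Chance alone gives about 1 in 20 groups, and the lineages of 1 dog are not independent. Its share was 0.3004% over all cells (next dog 0.113%, ratio 0.808), 0.421% in monocytes (0.149%, 0.799), 0.759% in neutrophils (0.295%, 0.727) and 0.123% in B cells (0.0790%, 0.704). It was 0.163% in other T cells (0.0826%, 0.739), 0.245% in eosinophils and basophils (0.0993%, 0.657) and 0.136% in dendritic cells (0.0912%, 0.653, 6 dogs). In CD4 T and CD8/NK cells this dog did not pass the value.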

How the results depend on the processing

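Of 861 recomputed values for 44 results, 849 kept their direction and side of the threshold or stayed within the spread, and edgeR or DESeq2 called 0 members between the groups in all 158 alternative fits. The 849 include 3 differences of the summed share in neutrophils that changed sign within the spread. They also include counts of members that were close but not equal to the main count. Alternatives that removed the granule gene cluster, removed neutrophils from the sum of all cells or left out healthy dog 7 in the comparisons of lineages were chosen after seeing the data. In neutrophils IFI44L turned to 0.91 with DESeq2 and to 1.10 without healthy dog 7, RSAD2 to 1.59 without that dog, and OASL (ENSCAFG00000010511) to 0.0099 without the granule gene cluster, and the cause was not tested. With each dog left out in turn, the difference in summed share ranged over 0.00121 to 0.0399 (all cells), 0.00292 to 0.0110 (CD4 T), 0.00424 to 0.0119 (CD8/NK), 0.00911 to 0.0195 (B), 0.0210 to 0.0784 (monocytes) and -0.0827 to 0.0235 (neutrophils), while in neutrophils the log2 fold change of IFI44L ranged over -1.80 to 1.10 and that of RSAD2 over -1.70 to 1.59, and the median correlation between lineages, 0.709 with all dogs, over 0.649 to 0.798. The highest 5% of cells, thinned to 1000 UMIs, held 24.4% in CD4 T cells, 22.8% in CD8/NK cells and 22.9% in monocytes, and by construction the highest 10% held more, with 32.5, 30.6, 32.8, 33.0 and 34.3% in CD4 T, CD8/NK, B cells, monocytes and neutrophils. Replicate numbers did not pair the dogs (7 pairs, r -0.456 to 0.456, 1 of 7 closest to its own number), and with the number as a block 0 members were called in each lineage. OS dogs 8, 9 and 10 were not in that block fit. Without the dog as a block, monocytes had 17 members higher and 3 lower, neutrophils 14 and 8, B cells 5 and 9 and CD8/NK cells 3 and 4. The search of promoters for a motif was not run, because no promoter table was at hand. Neutrophils had few counts, at least 95684 UMIs per dog, which limits what their low members can show.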
